A study of Rattus norvegicus with 6 samples.

Results

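Kupffer cells are the macrophages that live in the sinusoids of the liver, and the genes described here are 10 that mark these resident cells or help to set their identity: Clec4f, Vsig4, Cd5l, Timd4, Marco, Cd163, Spic, Folr2, Id3 and Slc15a3. They were picked by symbol, with their behaviour in these libraries already known, so that their levels are given as a description. The symbols matched 9 of the 32623 genes in the deposited table, all 9 with enough reads to be tested among 14298 genes. The expression of Timd4 was not matched and was not analysed here, and only its upstream sequence enters below.

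Messenger RNA of rat liver was measured by bulk RNA sequencing in 6 libraries. In the 3 GZM libraries the liver had been embolized with zinc sulfide (ZnS) microspheres. In the 3 GM libraries it had been embolized with blank microspheres, the study's control, so both groups had been embolized. The labels give no strain, age, time after embolization or tumour content, and they number the samples as biosamples without saying that each is a separate animal.

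Resident Kupffer cells take up particles, complement-coated microbes, dying cells and old red cells from portal blood. In mice they are seeded mostly before birth, and signals from hepatocytes, endothelial cells and stellate cells keep up their gene programme. That programme includes the nuclear receptor LXR-alpha and the regulators Id3 and Spic. After loss of resident cells in mice, monocytes can enter the niche and take on much of the same programme, with some markers returning later than others.

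The gene counts summed to between 13443115 and 16073943 in GZM and between 14552885 and 16604067 in GM. Scaling factors by the trimmed mean of M values (TMM), which put libraries of different composition on a common footing, were 0.715 to 0.793 in GZM and 1.17 to 1.43 in GM. Levels below are in CPM, the count of a gene per 1000000 counts of its library after this scaling, compared between libraries for 1 gene at a time. Comparisons between genes use FPKM, which divides a gene's count by its exon length and by the library's own total, without that scaling. Library GM 3 lay apart from the other GM libraries: the 15 hepatocyte markers summed to 64493.5 CPM in GM 3, against 24103.6 CPM in GM 1 and 17544.5 CPM in GM 2. The same sum was 155989 to 184687 CPM in GZM.

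The resident genes did not move as a block. Clec4f, Cd5l and Vsig4 were 3.31 to 4.84 times as high in GZM as in GM, while Cd163 and Folr2 were each 2.20 times as high in GM as in GZM. Marco was higher in GZM than in GM 1 and GM 2 but not than in GM 3. Spic, Slc15a3 and Id3 had negative log2 fold changes that did not pass the threshold, an adjusted p of 0.05 from edgeR's quasi-likelihood test over all genes. By that threshold 3 members were higher in GZM, 2 were lower and 4 did not pass. Over all tested genes 44.0% passed, 22.2% higher and 21.7% lower. Since this same contrast chose the members, nothing is read from their count. The members' median log2 fold change was -0.28 and that of all tested genes -0.09. In bulk tissue, fewer cells of a type and less RNA per cell cannot be told apart.

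**Figure D1:**
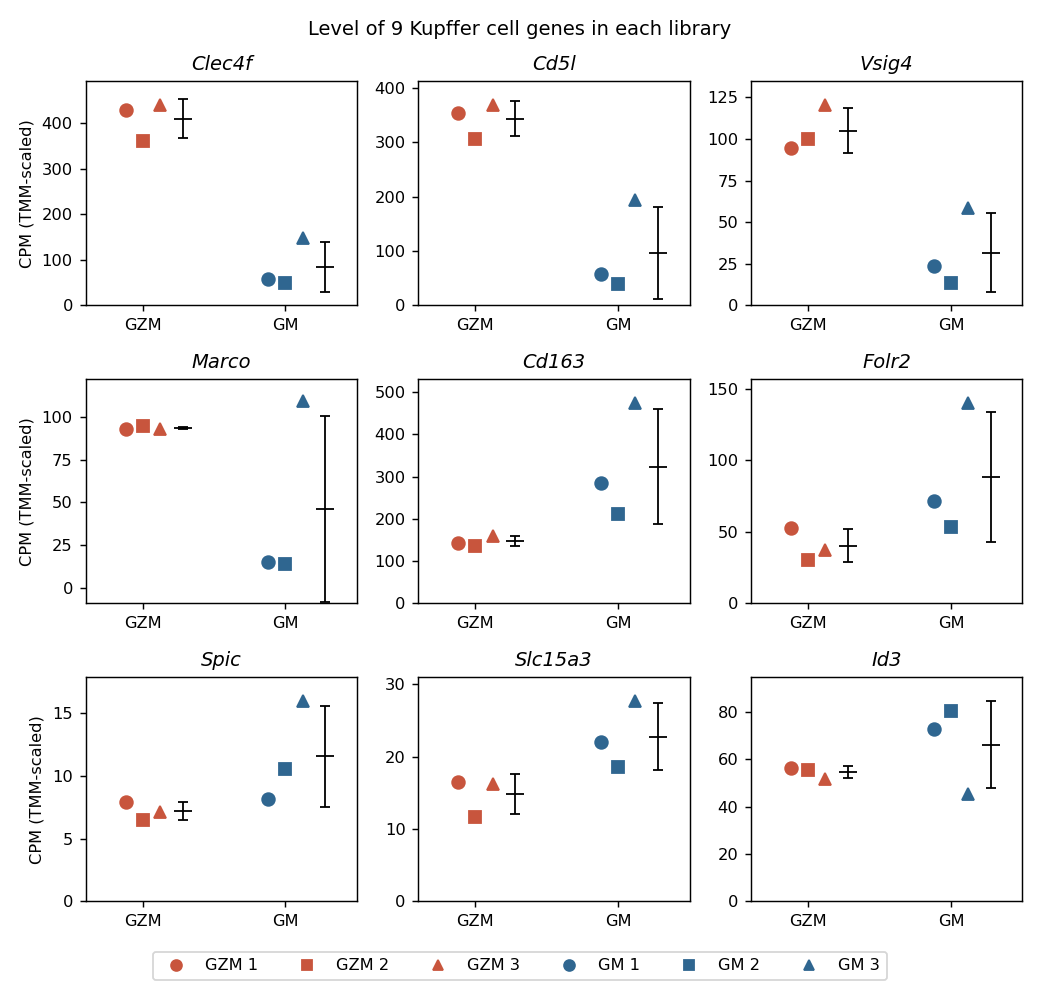
TMM-scaled CPM of the 9 measured resident genes, with 1 panel per gene on its own linear axis, 1 point per library (marker shape gives the replicate number), GZM left of GM, and the group mean with its SD as a bar to the right of the points. Clec4f, Cd5l and Vsig4 are higher in every GZM library than in any GM library, Cd163 and Folr2 are lower, and GM 3 is the highest GM library for 8 of the 9 genes.

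Among the surface receptors, Clec4f had the widest gap. It encodes the C-type lectin that binds galactose-type sugars and is a defining Kupffer cell marker in mice and rats. Its gene (ENSRNOG00000013137) is placed by the file on chromosome 4 at 115322291 to 115332052, minus strand. Clec4f had 428.5, 360.7 and 439.7 CPM in GZM 1, 2 and 3, against 57.0, 48.9 and 147.8 CPM in GM 1, 2 and 3. The groups were far apart, and GM 3 stood at 2.79 times the mean of the other GM libraries. The means were 409.6 ± 42.7 CPM in GZM and 84.6 ± 54.9 CPM in GM (SD, n = 3 each), a log2 fold change of 2.28 ± 0.42 (SE). Set against GM 3 alone, the GZM mean was still 2.77 times as high.

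Vsig4 encodes the complement receptor CRIg, which catches C3b-coated particles (ENSRNOG00000038132, chromosome X, 65370851 to 65400298, minus strand). Vsig4 stood at 94.6, 99.8 and 120.3 CPM in GZM 1, 2 and 3, against 23.7, 13.2 and 58.3 CPM in GM 1, 2 and 3. All GZM libraries were above all GM libraries, and GM 2 was the lowest of the 6. The log2 fold change was 1.73 ± 0.48 (SE), with means of 104.9 ± 13.6 CPM in GZM and 31.8 ± 23.6 CPM in GM (SD, n = 3 each).

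Marco encodes a collagenous scavenger receptor for bacteria and particles (ENSRNOG00000049303). The file puts it on chromosome 16 at 85115201 to 85135859, minus strand, whereas RefSeq's rat assembly GRCr8 has Marco on chromosome 13, and this difference was not resolved. Marco counts were 93.4, 94.7 and 93.3 CPM in GZM 1, 2 and 3, against 15.3, 14.1 and 109.3 CPM in GM 1, 2 and 3. The GZM libraries were nearly level, whereas GM 3 was 7.44 times the mean of GM 1 and GM 2 and above every GZM library. The groups therefore overlapped, and the log2 fold change of 1.02 ± 0.73 (SE) did not pass. Without GM 3 it was 2.71 and passed.

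Cd163 is the haptoglobin-hemoglobin receptor, known in rats as the ED2 antigen of resident tissue macrophages (ENSRNOG00000010253, chromosome 4, 156752082 to 156785467, plus strand). It had 143.7, 136.8 and 160.1 CPM in GZM 1, 2 and 3, against 284.4, 210.7 and 473.9 CPM in GM 1, 2 and 3. Every GZM library was below every GM library. The means of 146.9 ± 12.0 CPM in GZM and 323.0 ± 135.8 CPM in GM (SD, n = 3 each) gave a log2 fold change of -1.14 ± 0.30 (SE).

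Folr2 encodes folate receptor beta, a marker of resident macrophages in several mouse and human tissues (ENSRNOG00000019890, chromosome 1, 166915045 to 166919302, minus strand). Its level was 52.8, 30.3 and 37.6 CPM in GZM 1, 2 and 3, against 71.7, 53.3 and 139.9 CPM in GM 1, 2 and 3. GZM 1 lay just under GM 2, so the groups met closely without overlapping. The log2 fold change was -1.13 ± 0.37 (SE), with means of 40.2 ± 11.5 CPM in GZM and 88.3 ± 45.6 CPM in GM (SD, n = 3 each).

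Cd5l is secreted rather than held at the surface. It encodes AIM, a scavenger protein that macrophages release into blood (ENSRNOG00000023068, chromosome 2, 186685104 to 186696117, plus strand). Cd5l had 353.8, 306.3 and 368.1 CPM in GZM 1, 2 and 3, against 57.1, 38.7 and 193.4 CPM in GM 1, 2 and 3. GM 3 was 4.04 times the mean of GM 1 and GM 2 yet still below all GZM libraries. The means were 342.7 ± 32.3 CPM in GZM and 96.4 ± 84.5 CPM in GM (SD, n = 3 each), a log2 fold change of 1.83 ± 0.55 (SE). In FPKM, without TMM scaling, GM 3 at 115.27 lay above GZM 2 at 111.39, so the groups overlapped there.

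The nuclear regulators differed less. Spic encodes an ETS-family factor induced by heme in mouse macrophages (ENSRNOG00000005720, chromosome 7, 29225727 to 29233392, minus strand), and it had the lowest counts of the members. It had 7.92, 6.51 and 7.15 CPM in GZM 1, 2 and 3, against 8.15, 10.5 and 15.9 CPM in GM 1, 2 and 3. The groups lay side by side without overlap, and the log2 fold change of -0.68 ± 0.29 (SE) did not pass.

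Id3 encodes an inhibitor of basic helix-loop-helix factors that mouse Kupffer cells need to form (ENSRNOG00000026124, chromosome 5, 154489590 to 154491223, plus strand). It had 56.2, 55.6 and 51.6 CPM in GZM 1, 2 and 3, against 72.5, 80.5 and 45.3 CPM in GM 1, 2 and 3. Id3 was the member whose lowest GM library was GM 3, and its groups overlapped in CPM. In FPKM, without TMM scaling, they did not overlap, at 39.51 to 41.41 in GZM and 52.8 to 113.38 in GM. The log2 fold change of Id3 was -0.28 ± 0.22 (SE) and did not pass. Without GM 3 it was -0.45 and passed.

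Slc15a3 encodes a lysosomal transporter of histidine and small peptides (ENSRNOG00000021644, chromosome 1, 226897625 to 226912708, plus strand). It had 16.5, 11.7 and 16.3 CPM in GZM 1, 2 and 3, against 22.0, 18.6 and 27.7 CPM in GM 1, 2 and 3. The groups did not overlap, and the log2 fold change of -0.62 ± 0.22 (SE) did not pass. Without GM 2 it was -0.74 and passed.

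Counted over the members, the CPM ranges of the groups were apart for 7 genes and overlapped for 2, Marco and Id3. Groups were apart for 58.1% of all tested genes. GM 3 was the highest GM library for 8 of 9 members, a position it held for 38.0% of tested genes. The highest library of a group was 1.01 to 1.74 times its lowest in GZM, and 1.49 to 7.76 times in GM, depending on the member.

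The sizes of these differences depended on which libraries entered. Across 14 alternative settings every measured member kept the sign of its log2 fold change, and Clec4f passed in all of them, with values between 1.51 and 2.99. Vsig4 did not pass without GZM 2 (1.77), without GZM 3 (1.62) or without GM 1 (1.55). Cd5l failed to pass without GZM 1 (1.81), GZM 2 (1.91), GZM 3 (1.78), GM 1 (1.56) or GM 2 (1.44). For Cd163 the call was absent without GZM 1 (-1.11), GZM 2 (-1.08) or GZM 3 (-1.19), and for Folr2 without GZM 2 (-0.96), GZM 3 (-1.08), GM 1 (-1.27) or GM 3 (-0.60). Without GM 3, Clec4f stood at 2.99, Cd5l at 2.88 and Vsig4 at 2.55.

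Scaling to library totals in place of TMM moved the median log2 fold change of all tested genes to -0.92. The members moved with it. Clec4f was then 1.51, the 1 member passing as higher. Vsig4 at 0.97 and Cd5l at 1.09 no longer passed. Cd163 (-1.93), Folr2 (-1.92), Spic (-1.48), Slc15a3 (-1.43) and Id3 (-1.15) passed as lower. Under that scaling 68.7% of tested genes passed, 9.20% higher and 59.5% lower.

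**Figure D2:**
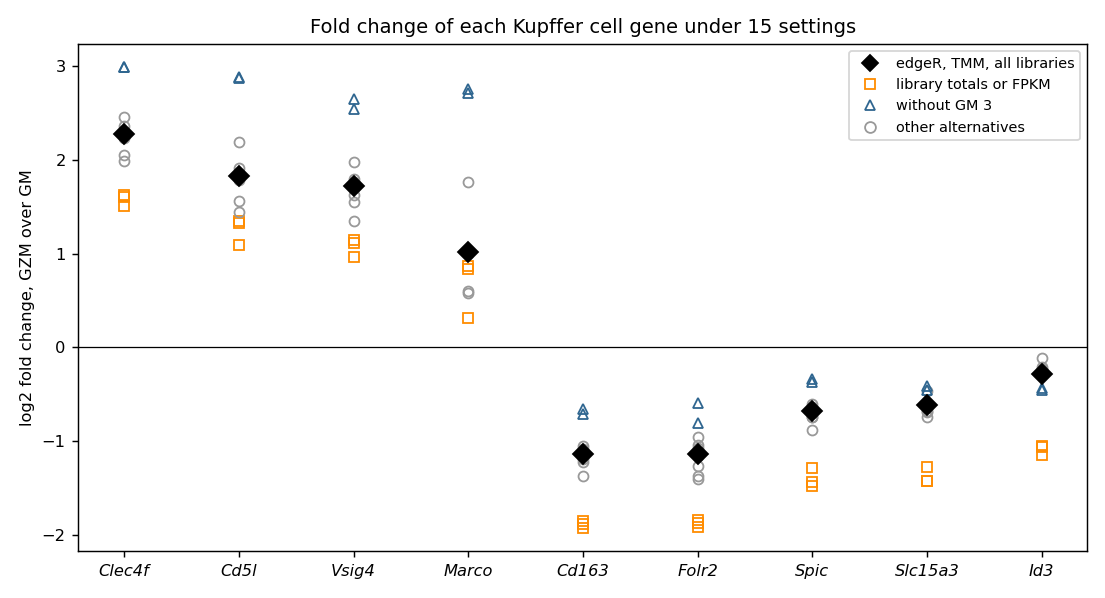
Log2 fold change of GZM over GM (vertical axis) for each measured resident gene, with a diamond for edgeR with TMM scaling on all libraries, squares for library totals or FPKM, triangles for the fits without GM 3 and circles for the other alternatives. No member crosses 0, and Marco spans the widest range, 0.31 to 2.75.

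Because the 2 scalings shift all genes together, ratios of FPKM between members inside a library were also taken, which no scaling can move. Clec4f to Cd163 was 6.59, 5.83 and 6.07 in GZM 1, 2 and 3, against 0.443, 0.513 and 0.689 in GM 1, 2 and 3. The order of the 2 markers was thus opposite in the groups, with Clec4f above Cd163 in every GZM library and below it in every GM library. The mean ratio was 11.2 times as high in GZM as in GM.

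In mean FPKM, the members in GZM ran from Clec4f (159.8 ± 23.9, SD, n = 3) and Cd5l down through Vsig4, Marco, Id3, Folr2 and Cd163 to Slc15a3 and Spic. In GM the order began with Folr2 and Cd163, then Id3, Cd5l, Clec4f (56.0 ± 29.5, SD, n = 3), Marco and Vsig4, and ended with Spic and Slc15a3. In GM every neighbouring pair in that order differed by less than the larger of their SDs. In GZM this held for Id3 and Folr2, for Folr2 and Cd163, and for Slc15a3 and Spic, and the other neighbours were further apart.

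Cd68, a lysosomal protein of all macrophages, gave a common yardstick and was named after its values were seen. Relative to Cd68, Cd163 was 0.301, 0.452 and 0.406 in GZM 1, 2 and 3, against 0.417, 0.382 and 0.372 in GM 1, 2 and 3. Folr2 relative to Cd68 was 0.495, 0.449 and 0.428 in GZM 1, 2 and 3, against 0.472, 0.433 and 0.492 in GM 1, 2 and 3. Both ratios overlapped between the groups, and the GZM means were 0.990 (Cd163) and 0.982 (Folr2) times the GM means. The log2 fold change of Cd68 itself, -1.09, was near theirs, so ratios near 1 follow from that choice. Divided by the summed FPKM of 18 genes shared by macrophages and monocytes, Cd163 and Folr2 were 1.31 and 1.28 times as high in GZM, with overlap. Spic, Slc15a3 and Id3 were then 1.72, 1.77 and 2.12 times as high in GZM, without overlap. Lyz2, a gene of that sum, averaged 762.4 CPM in GZM and 2899.9 CPM in GM. Its part in these ratios was not tested. Relative to Cd68 alone, Spic and Id3 were 1.291 and 1.502 times as high in GZM, with overlap. Slc15a3 relative to Cd68 was 1.305 times as high, its lowest GZM library 1.03 times its highest GM library.

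Clec4f relative to Cd68 was 1.98, 2.64 and 2.47 in GZM 1, 2 and 3, against 0.185, 0.196 and 0.256 in GM 1, 2 and 3. Cd5l gave 1.60, 2.20 and 2.03 in GZM, against 0.182, 0.152 and 0.329 in GM. Vsig4 gave 0.597, 0.997 and 0.921 in GZM, against 0.105, 0.0724 and 0.138 in GM. Per unit of Cd68, these receptors and the secreted Cd5l were thus several times higher in each GZM library than in any GM library. Marco, which overlapped in CPM, did not overlap on this measure, at 0.523, 0.838 and 0.634 in GZM 1, 2 and 3 against 0.0601, 0.0684 and 0.230 in GM 1, 2 and 3.

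The hepatocyte markers moved with Clec4f, Cd5l and Vsig4. All 15 were detected, none was at 0, and 13 of 15 passed as higher in GZM, their median log2 fold change being 2.49. Without GM 1 the number that passed was 7, and without GM 3 it was 15. Clec4f amounted to 0.286, 0.230 and 0.338 percent of their summed FPKM in GZM 1, 2 and 3, against 0.275, 0.320 and 0.267 percent in GM 1, 2 and 3. These shares overlapped, and their means were in a ratio of 0.991. Cd163 amounted to 0.0434, 0.0394 and 0.0556 percent in GZM 1, 2 and 3, against 0.620, 0.624 and 0.387 percent in GM 1, 2 and 3, with no overlap. For Marco the shares were 0.0755, 0.0731 and 0.0868 percent in GZM 1, 2 and 3, against 0.0892, 0.112 and 0.239 percent in GM 1, 2 and 3. Marco was thus lower in every GZM library on this measure, the reverse of its order relative to Cd68. The part of hepatocyte content in the members' differences was not tested.

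**Figure D3:**
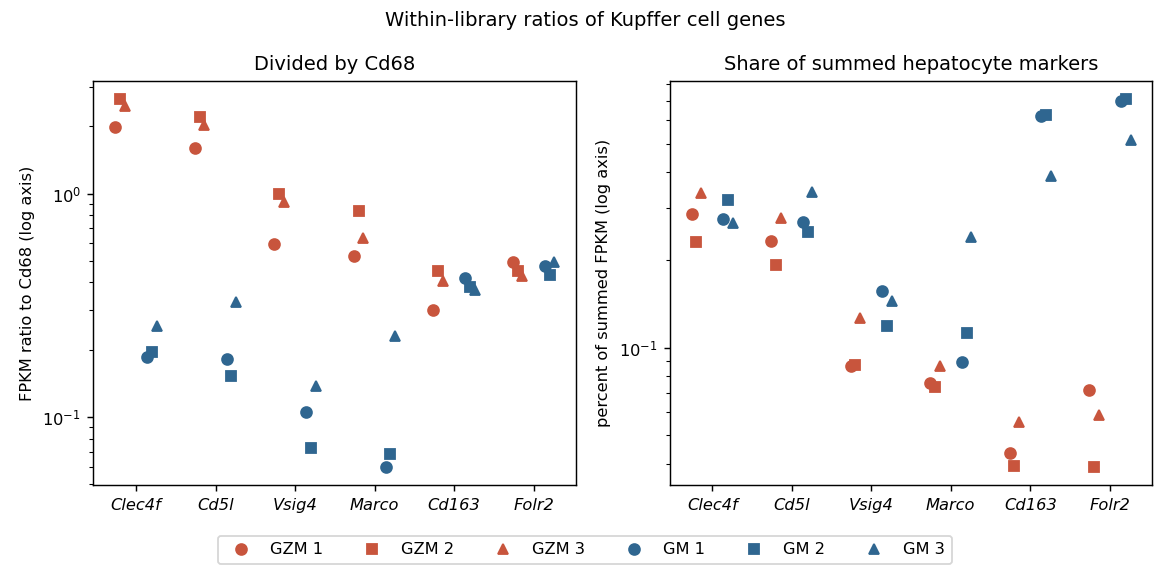
FPKM of 6 resident genes divided by that of Cd68 (left) and as a percent of the summed hepatocyte marker FPKM (right), both on log axes, with 1 point per library and GZM left of GM for each gene. Cd163 and Folr2 overlap between groups relative to Cd68, whereas Clec4f, Cd5l and Vsig4 overlap relative to the hepatocyte markers. Marco is higher in every GZM library relative to Cd68 and lower in every GZM library relative to the hepatocyte markers.

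Profiles of tested genes over the 6 libraries were compared with that of Clec4f. Members, genes without a symbol and symbols starting with AABR, LOC, RGD or AC plus a digit were left out of this search. The 5 remaining genes with the profile most like that of Clec4f were Cpn2, Trpm6, Masp2, Trim14 and Tmprss6. Their root mean square differences from it, in log2 CPM after centring each gene, were 0.0920, 0.106, 0.113, 0.118 and 0.143. Cpn2 encodes a subunit of the plasma enzyme carboxypeptidase N, Masp2 a protease of the lectin pathway of complement, and Tmprss6 a liver protease that lowers hepcidin. Among the members, Cd5l was nearest at 0.250, with 133 tested genes nearer, counted without those exclusions. Vsig4 followed at 0.323 with 324 nearer, and Marco at 0.608 with 1176 nearer. Cd163, at 1.77, had 11299 tested genes nearer to Clec4f than itself.

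The upstream sequences of Clec4f, Cd163 and Folr2 are shown because these genes stood at opposite ends of the members' differences. The windows are the 250 bases before the gene start in RefSeq's GRCr8 assembly, read along the gene's own strand: chr4:117696408-117696657 (minus strand) for Clec4f, chr4:158770524-158770773 (plus strand) for Cd163 and chr1:165630383-165630632 (minus strand) for Folr2. RefSeq windows were matched for 9 of the 10 members, all but Slc15a3. Capitals mark GGAAGT, a core of the kind bound by ETS factors such as PU.1.
Clec4f: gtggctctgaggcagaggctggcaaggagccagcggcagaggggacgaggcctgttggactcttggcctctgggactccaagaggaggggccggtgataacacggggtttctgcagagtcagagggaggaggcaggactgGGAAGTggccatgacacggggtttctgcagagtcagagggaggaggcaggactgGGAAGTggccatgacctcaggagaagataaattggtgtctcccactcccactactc
Cd163: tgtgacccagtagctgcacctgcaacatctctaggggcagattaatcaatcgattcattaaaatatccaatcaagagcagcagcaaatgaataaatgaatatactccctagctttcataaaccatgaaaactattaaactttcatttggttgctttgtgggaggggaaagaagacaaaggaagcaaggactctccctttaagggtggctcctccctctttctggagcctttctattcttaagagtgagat
Folr2: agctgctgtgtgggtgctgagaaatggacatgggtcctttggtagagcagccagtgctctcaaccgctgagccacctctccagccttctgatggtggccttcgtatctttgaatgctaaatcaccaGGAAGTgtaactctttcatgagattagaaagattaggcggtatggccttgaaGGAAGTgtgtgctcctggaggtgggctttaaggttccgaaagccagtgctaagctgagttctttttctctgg

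The Clec4f window held GGAAGT starting 110 and 56 bases before the gene start, once in each copy of an exact 54-base repeat whose copies start 151 and 97 bases before it. Folr2 held it 124 and 72 bases before the start, and the Cd163 window held none. On either strand, GGAAGT was in 4 of 9 member windows (Clec4f, Timd4, Spic and Folr2) and in 19.2% of 33469 windows of the same length over all genes. TGGGAA, part of a binding motif of RBPJ, was in 2 of 9 member windows (Clec4f and Marco) and 22.1% of all windows, and in Clec4f it overlaps GGAAGT. The core of the MAF recognition element, TGCTGA, was in 3 of 9 (Cd5l, Timd4 and Folr2) and 15.1% of all windows. The motifs were chosen after the windows had been read, so these matches only describe the letters present.

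Other genes of the Kupffer cell programme lay to both sides with TMM scaling and mostly on the lower side with library totals. Of 23 tested, 4 rose, 4 fell and 15 did not pass, with a median log2 fold change of -0.44. With library totals 3 rose and 17 fell, with a median of -1.23. Nr1h3, which encodes LXR-alpha, averaged 151.8 ± 17.9 CPM in GZM and 56.8 ± 18.3 CPM in GM (SD, n = 3 each; edgeR adjusted p = 0.0043), and it missed the threshold in limma on log2(FPKM + 0.1), with 0.058. Relative to Cd68, the mean of Nr1h3 was 5.53 times as high in GZM as in GM. As a percent of the summed hepatocyte marker FPKM it was 0.460 times as high. Neither measure overlapped between the groups. Cd81, a tetraspanin, averaged 422.5 ± 50.4 CPM in GZM and 164.3 ± 61.3 CPM in GM (edgeR adjusted p = 0.0078), a rise that did not pass with library totals (0.061). Fabp7, a fatty acid-binding protein, rose by 2.19 on the log2 scale (edgeR adjusted p = 0.0094). Cd38, an NAD-consuming ectoenzyme, fell to 61.3 ± 6.84 CPM in GZM, against 147.3 ± 30.0 CPM in GM (edgeR adjusted p = 0.0032). The count that fell was 1 without GZM 2 or GZM 3, 2 without GZM 1, GM 1 or GM 3, and 7 without GM 2. GM 3 was the highest GM library for 22 of these 23 genes.

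Of the genes named after their values were seen, Clec1b, a lectin that is a Kupffer cell marker in mice, had a log2 fold change of 1.74 that did not pass (edgeR adjusted p = 0.056). It passed without GM 3 (0.0021) and, with all libraries, in DESeq2 (0.018), without the low-count filter (0.038) and with the replicate block (0.035). The complement component genes C1qa, C1qb and C1qc had log2 fold changes of -0.52, -0.44 and -0.57, none passing with TMM scaling. With library totals all of them fell, by 1.29, 1.22 and 1.34 (edgeR adjusted p = 0.017, 0.010 and 0.011), and they also fell in both limma settings. Without GM 3 the log2 fold changes were 0.17, 0.14 and 0.10, the opposite direction. Csf1r, the receptor on which macrophages depend for survival, fell to 169.8 ± 41.0 CPM in GZM, against 337.0 ± 89.1 CPM in GM (edgeR adjusted p = 0.022). The Csf1r call was lost without GZM 2 (0.095), GZM 3 (0.064) or GM 1 (0.067).

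The genes shared by macrophages and monocytes lay on the side of Cd163 and Folr2. Of 18 tested, 15 fell and none rose, with a median of -1.09 on the log2 scale. Their summed level was 1833.9 to 2785.8 CPM in GZM and 4720.8 to 7664.0 CPM in GM. The count that fell was 6 without GZM 2 and 7 without GZM 3. Adgre1 and Csf1r, which fell, were also counted as fallen among the other Kupffer cell genes. Csf1r was counted again among the niche receptors and mediators, so the counts of these lists are not separate. Lyz2, lysozyme, fell by 1.93 and Itgam, the integrin CD11b, fell by 1.78 on the log2 scale (edgeR adjusted p = 0.0032 and 0.0024). Fcgr1a, a high-affinity IgG receptor, fell by 1.47 and Cybb, the oxidase subunit, fell by 1.25 (edgeR adjusted p = 0.0050 and 0.0066). Cd68 itself fell by 1.09 (edgeR adjusted p = 0.032), a call lost without GZM 2 (0.12), GZM 3 (0.090) or GM 1 (0.051).

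Genes of recruited and lipid-associated macrophages followed the same direction for the most part. Of 18 tested, 2 rose, 10 fell and 6 did not pass, with a median of -1.08. The count that rose was 1 without GM 1 and 4 without GM 3. With all libraries the genes that rose were Arg1 and F10, named after their values were seen. Their log2 fold changes were 2.11 and 2.43 (edgeR adjusted p = 0.012 and 0.0080), beside the hepatocyte marker median of 2.49. The part of hepatocytes in these 2 rises was not tested. S100a4, a calcium-binding protein, fell to 36.1 ± 10.1 CPM in GZM, against 161.8 ± 76.8 CPM in GM (SD, n = 3 each; edgeR adjusted p = 0.0037). Cd9 fell by 1.91, Plac8 by 1.72 and Thbs1 by 1.54 on the log2 scale (edgeR adjusted p = 0.0033, 0.0022 and 0.0043).

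**Figure D4:**
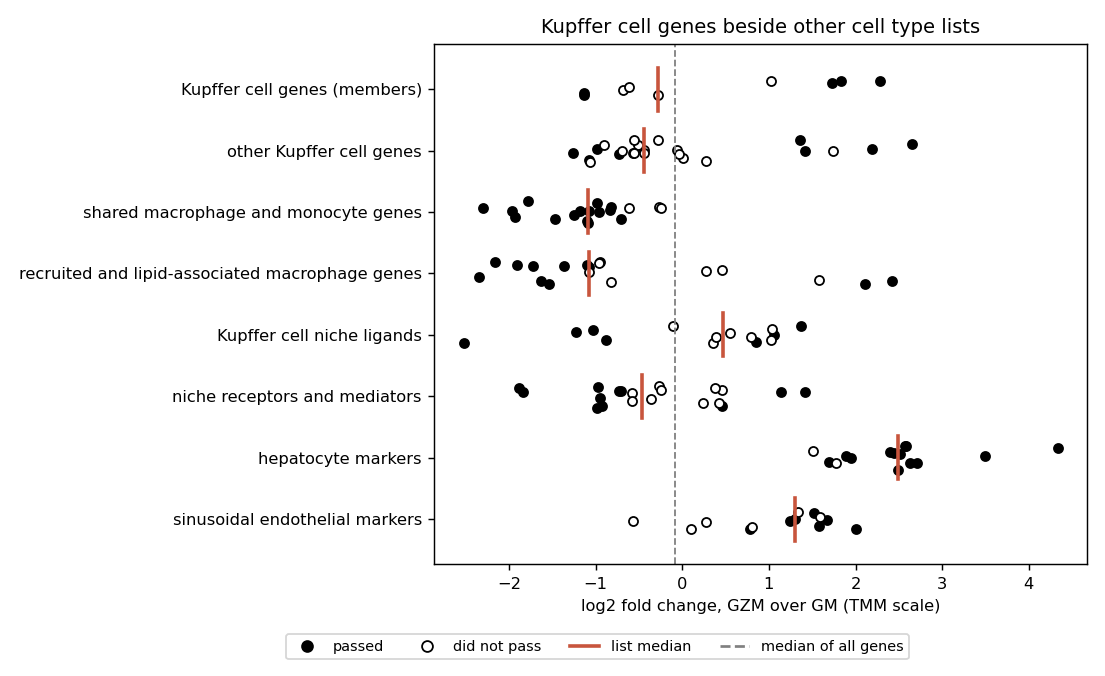
Log2 fold change of GZM over GM (TMM scale, horizontal axis) for each tested gene of 8 lists, with filled points for an adjusted p under 0.05, a bar at each list's median and a dashed line at the median of all tested genes, -0.09. The members spread to both sides, while the shared macrophage genes centre at -1.09 and the hepatocyte markers at 2.49.

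Niche ligands, the signals that neighbours send to Kupffer cells, were mixed. Of 14 tested, 3 rose and 4 fell, with a median log2 fold change of 0.47 that turned to -0.36 with library totals, where none rose. Without GZM 2 or GZM 3 the number that rose was 1. Ccl2, the chemokine that draws monocytes, fell to 28.4 ± 3.47 CPM in GZM, against 162.4 ± 65.6 CPM in GM (SD, n = 3 each; edgeR adjusted p = 0.0022). Jag1, a Notch ligand, fell by 1.03 and Tgfb1 fell by 0.89 on the log2 scale (edgeR adjusted p = 0.011 and 0.0058). Gdf2, which encodes the ligand BMP9, rose by 1.37 (edgeR adjusted p = 0.013) and did not pass with library totals (0.15).

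Of 20 niche receptors and mediators tested, 3 rose and 8 fell, with a median of -0.47. With library totals 1 rose and 13 fell, with a median of -1.30. On TMM scaling, the number that fell was 3 without GZM 2 and 5 without GZM 3 or GM 1, and the number that rose was 1 without GM 1. Rbpj, the nuclear partner of Notch, fell to 39.7 ± 5.11 CPM in GZM, against 142.2 ± 15.8 CPM in GM (SD, n = 3 each; edgeR adjusted p = 0.0018). Zeb2, a repressor that keeps macrophage identity in mice, fell by 1.89 on the log2 scale (edgeR adjusted p = 0.0023). Spi1, which encodes PU.1, fell by 0.92 and Irf8 fell by 0.97 (edgeR adjusted p = 0.0093 and 0.012). The Irf8 call was lost without GZM 2 (0.059) or GZM 3 (0.056).

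The families of the members gave a similar mixture. In the ID family, Id4 rose by 1.72 and Id2 rose by 0.86 on the log2 scale (edgeR adjusted p = 0.0043 and 0.020), and Id1 had -1.10 without passing (0.097). Id2 did not pass with library totals (0.83), nor without GZM 1 (0.060), GM 1 (0.077) or GM 2 (0.055), while Id1 passed with library totals (-1.98, adjusted p = 0.010), in both limma settings and without GM 3 (0.014). The family of 4, Id3 included, had 2 genes higher and 0 lower with TMM scaling, and 1 higher and 2 lower with library totals. Beside Folr2, 1 of the other 4 folate genes passed: Slc46a1, the proton-coupled folate transporter, rose to 30.8 ± 9.04 CPM in GZM, against 8.17 ± 3.88 CPM in GM (SD, n = 3 each; edgeR adjusted p = 0.0056). With library totals 1 of the 5 folate genes rose and 3 fell, Folr2 among them. In the SLC15 family, none of the 3 tested genes passed with TMM scaling, and with library totals 2 of them fell.

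Among genes that handle hemoglobin, heme and iron, those that rose included plasma proteins made by hepatocytes. Of 15 tested, Spic and Cd163 among them, 4 rose and 1, Cd163, fell. With library totals 3 rose and 8 fell. The median of the list was 0.01 on the log2 scale, and -0.77 with library totals. Hp, haptoglobin, averaged 29472 ± 4506 CPM in GZM and 4846 ± 4514 CPM in GM, and Hpx, hemopexin, averaged 24657 ± 2918 CPM in GZM and 3642 ± 3170 CPM in GM (SD, n = 3 each; edgeR adjusted p = 0.020 and 0.014). With TMM scaling the number that rose was 0 without GM 1, 1 without GZM 2, 2 without GM 2 and 6 without GM 3. The Hp call was lost without GZM 2 (0.061), GM 1 (0.088) or GM 2 (0.0504), and the Hpx call without GM 1 (0.065). Of this list, Fth1 was listed at 0 counts in all libraries and Slc40a1 had 1 count in all, so neither was tested. No absence of expression was read from these counts.

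Markers of some other liver cells also differed between the groups. Of 13 sinusoidal endothelial markers tested, 7 rose and none fell, with a summed level of 672.0 to 772.3 CPM in GZM and 300.1 to 627.7 CPM in GM. The number that rose was 4 without GZM 1, GZM 2, GZM 3 or GM 1, and 10 without GM 3. With library totals 1 rose and 2 fell. All 12 dividing cell markers fell in every setting that left out 1 library, with sums of 248.8 to 276.7 CPM in GZM and 630.4 to 1605.4 CPM in GM. Of 12 T-cell markers tested, 2 fell (6 with library totals, 11 without GZM 1) and 10 did not pass. Their sum was 305.4, 97.0 and 116.1 CPM in GZM 1, 2 and 3, against 307.1, 305.6 and 579.7 CPM in GM 1, 2 and 3. GZM 1 stood apart from the other GZM libraries. Without Cd8a, named after its values were seen, the groups overlapped through GZM 1. The sums were then 236.5, 71.2 and 98.8 CPM in GZM 1, 2 and 3, against 169.0, 170.6 and 340.1 CPM in GM 1, 2 and 3. Cd4, also named after its values were seen, gave 84.5, 46.0 and 72.3 CPM in GZM 1, 2 and 3. In GM 1, 2 and 3 it gave 86.5, 60.2 and 144.4 CPM. A large part of the sums in GZM 2 and GZM 3 thus came from 1 gene, and they were not read as T-cell content. Of 12 dendritic cell markers tested, 2 rose and 3 fell (0 and 7 with library totals), with sums of 220.0 to 324.6 CPM in GZM and 384.5 to 562.4 CPM in GM. Clec10a, named after its values were seen, averaged 75.6 CPM in GZM and 226.3 CPM in GM, and Irf8 averaged 82.7 and 161.9 CPM. A large part of these sums came from Clec10a and Irf8, and the sums were not read as dendritic cell content. Irf8 also fell among the niche receptors and mediators, and Itgax among the recruited macrophage genes, so these counts are not separate. Of 11 B-cell and plasma cell markers tested, 1, Xbp1, rose (5 genes without GM 3) and 10 did not pass, and with library totals 1 rose and 3 fell. Their sum was 293.6 to 358.4 CPM in GZM and 127.7 to 255.1 CPM in GM. Without Xbp1, left out after its values were seen, the groups overlapped, at 61.0 to 92.2 CPM in GZM and 58.2 to 132.8 CPM in GM. The part of these cell types in the members' differences was not tested.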

How the data were processed

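Gene expression was measured by bulk RNA sequencing of 6 rat liver libraries, 3 GZM and 3 GM, grouped and numbered by their labels. RNA was enriched for polyadenylated transcripts and made into strand-specific libraries, per the labels' protocols. Which aligner and counter were run is not given in the sources used here. Use of the strand in counting is not stated either, so genes that overlap others are uncertain. The build is mRatBN 7.2, per the submitters' processing notes, yet the largest end on chromosome 1 is 282724300, which exceeds its length there, and the positions printed are those of the file.

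The authors deposited 1 table with whole, unnormalized counts and FPKM values for every library, per the file headers. The deposited FPKM values equal the counts divided by exon length and the library's summed counts, within 0.01 for all 195738 values. The exon length column, in bases per the file headers as deposited, entered that check. The GZM columns carry the letters ZGM and were matched by letters and number. All per-sample columns were used.

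Counts were tested with edgeR 4.0.16 in R 4.3.3: a quasi-likelihood test with TMM factors and no covariate, after the tool's default filter on low counts. Adjustment was by Benjamini-Hochberg over 14298 genes, at 0.05. Since the labels do not tie each biosample to its own animal, a p-value here measures the spread between samples, which may be technical. Alternatives were library totals, median-of-ratios factors, no filter, DESeq2 1.42.0, limma 3.58.1 on log2(FPKM + 0.1) and log2(FPKM + 1) with a mean FPKM of at least 0.1, a block for the replicate number, each library left out in turn, and GM 3 left out together with GZM 1. The script was tested on simulated data. Standard errors are those implied by the quasi-F values.

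The members and the 23 other gene lists were chosen with earlier results of these data known. Genes named are the members, in each list up to 4 genes with the lowest p, all genes of lists of at most 5, and the 5 profiles nearest to Clec4f after the exclusions given there, or are said to have been named after their values were seen. Of these, the genes that bear on the members are described. Upstream windows are from RefSeq (GRCr8). Figures were drawn with matplotlib 3.10.9.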

Additional observations from a re-analysis of the deposited data

How the results depend on the processing

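The count of changed genes was 6285, and was 9828 with library totals, 9830 in limma on log2(FPKM + 0.1), 9913 in limma on log2(FPKM + 1) and 3777 to 7024 when 1 library was left out. Genes higher in GZM numbered 3181, and 1315, 1243 and 1324 in those 3 settings, with 2112 to 3592 on leaving out a library and 3645 without both GM 3 and GZM 1. Genes lower in GZM numbered 3104, and 8513, 8587 and 8589, with 1665 to 3432. Among the fits that left out a library, the lowest counts of all genes came without GZM 2. Members higher in GZM were 3, and 1 with library totals, 1 in limma on log2(FPKM + 0.1) and 1 to 4 on leaving out a library. Members lower were 2, and 5 in each of the 3 settings, with 0 to 3 on leaving out a library. Over the fixed lists without the members, 58 genes rose, against 32, 27 and 30 in the 3 settings and 35 to 78 on leaving out a library. There 62 fell, against 127, 123 and 126, with 38 to 73. The median log2 fold change of all genes was -0.09, and -0.92 with library totals, -0.88 and -0.55 in the limma settings.

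Blvrb, 0.67 on the log2 scale, was -0.15 with library totals and -0.15 in both limma settings. On leaving out a library, C1qa ran from -0.84 to 0.17, C1qb from -0.68 to 0.14 and C1qc from -0.82 to 0.10, each positive without GM 3 and negative when any other single library was left out. Among 798 values of 57 named genes outside the members, 692 kept direction and side of the threshold, 64 lost the threshold, 36 gained it and 6 reversed. The causes were not tested. Arg1, F10, Cd4, Cd8a, Clec10a and Xbp1 were not among the 57. Same-numbered GZM and GM libraries had correlations of deviations of -0.14, 0.16 and -0.27, so the numbers were not taken to pair samples; with the replicate block 5166 genes changed (2676 higher, 2490 lower), with 3 members higher and 2 lower.

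The groups hold 3 libraries each, and GM 3 was the highest GM library for 8 of 9 members. Low counts, as for Spic, limit the precision of a fold change further.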
